A study of Macaca fascicularis with 11 samples.

Results

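Isolated cytosines are CpG cytosines that stand alone or in pairs among the cytosines listed by reduced representation bisulfite sequencing (RRBS) of Cynomolgus macaque muscle. The listed cytosines of chromosomes 1 to 20, without chromosomes 10 and 11, were ordered by position with both strands together. A new run was started wherever the gap to the previous listed cytosine was over 1000 bp. Cytosines in runs of 1 or 2 were taken as isolated. They numbered 5072 of the 42613 cytosines on these 18 chromosomes (11.9%) and of the 61399 cytosines in the whole table. They formed 3352 runs, of which 1632 held 1 cytosine and 1720 held 2. The comparison set was the 11301 cytosines in the 788 runs of 10 or more, called dense here, and the remaining 26240 lay in runs of 3 to 9. Isolation describes the listed cytosines only, since a CpG that was not listed in all animals is not counted.

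RRBS was run on quadriceps biopsies of 11 adult male Cynomolgus macaques, which form 1 group with no treatment compared. The value for each cytosine and animal is a methylation ratio from 0 to 1, given here as a level in percent. No read counts accompany the ratios, so the depth behind each level is unknown beyond the minimum coverage of 10 reads in the study's methods. Animals are named by the numbers that head the columns, no value was missing, and no pair of animals had identical values. The labelled tissue was not checked against marker genes, since no gene annotation was used.

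In mammalian DNA, methyl groups are placed mainly on cytosines followed by guanine. CpGs that lie close together in CpG islands, often at promoters, are commonly unmethylated, whereas scattered CpGs are commonly methylated. RRBS cuts DNA at sites that contain a CpG and sequences the fragment ends, so its reads favour CpG-rich stretches and reach scattered CpGs near a cut site.

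Animals 2606, 2646, 5296 and 5272 stood apart from the other 7 at unmethylated cytosines. At isolated cytosines with a mean below 10% in the other animals, their levels averaged 5.65%, 5.15%, 5.12% and 5.01%, against 2.91% to 3.36% in the other 7. The same 4 animals were the highest at such dense cytosines, with 4.39% to 5.35% against 2.66% to 2.94%. At isolated cytosines with a mean above 90% in the other animals, no such separation was seen, and the averages of all 11 animals lay between 93.3% and 95.1%.

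The mean level of an animal over isolated cytosines was lowest at 35.7%, in animal 5295, had a median of 37.1%, and was highest at 38.7%, in animal 2646. Over dense cytosines the lowest, median and highest were 25.4%, 26.2% and 28.0%, so the animals' values in the sets did not overlap. The mean was 37.2% ± 1.01 (SD, n = 11) at isolated and 26.6% ± 0.942 at dense cytosines. The difference of 10.7 percentage points ± 0.492 had the same direction in 11 of 11 animals (two-sided exact permutation test of the paired differences, p = 0.000977, adjusted p = 0.00124). This p is the smallest that the 2048 sign changes can give. It and the SD measure agreement among animals read at the same cytosines. Variation among cytosines or runs does not enter them, here or in the other comparisons. Within single animals the difference ran from 9.84 to 11.6 points, and without the 4 animals named above it was 10.6 points. Counting both strands of a CpG once before runs were formed moved it to 18.2 points. Dense runs then held 8071 CpGs with a mean of 19.3%, while the 5126 isolated CpGs had a mean of 37.5%.

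The level did not fall evenly with run size. It was 35.7% ± 1.07 in runs of 1, 38.0% ± 0.990 in runs of 2 and 41.0% ± 0.558 in runs of 3 to 4. It was then 32.0% ± 0.657 in runs of 5 to 9, 25.6% ± 0.843 in runs of 10 to 19 and 26.7% ± 0.981 in runs of 20 to 49 (all SD, n = 11). The 4 runs of 50 or more, with 459 cytosines, had a mean of 44.3% ± 8.21 and the widest spread between animals, from 33.1% to 63.4%. The highest value was that of animal 2595, and the next highest was 51.0%, in animal 5296. Without these 4 runs the level at dense cytosines was 25.8%, and the difference from isolated cytosines was 11.4 points. Among isolated cytosines, those in runs of 1 were below those in runs of 2 in 11 of 11 animals, by -2.29 points ± 0.292 (exact permutation test, p = 0.000977, adjusted p = 0.00124). With chromosomes 10 and 11 included this difference was -3.71 points, and over every sequence -3.64 points. The p covers the 11 animals and not the variation in level from run to run, against which this small difference was not tested.

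**Figure D1:**
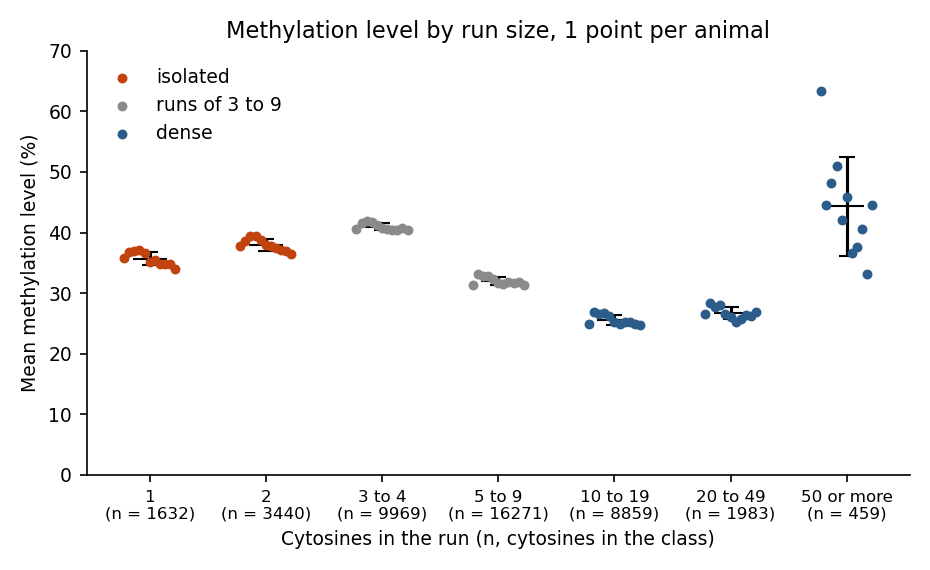
Mean methylation level (percent) of each animal over the cytosines of each run size class, with the mean and SD over 11 animals in black. Isolated cytosines (runs of 1 and 2) lie between 34.0% and 39.5% in all animals. They lie above the classes of 10 to 19 and 20 to 49. The 4 runs of 50 or more range from 33.1% to 63.4%, with the highest value in animal 2595.

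Just outside the limits of the rule, levels were somewhat higher than just inside. These differences were not tested. Runs of exactly 3, just outside the limit, held 4785 cytosines with a mean of 39.3% ± 0.689, against the 38.0% of runs of 2. The 206 isolated cytosines whose nearest listed neighbour outside the run was within 1.5 kb had a mean of 30.4% ± 1.36. The 254 cytosines that a gap of over 500 bp would have added to the isolated set had a mean of 32.8% ± 0.897.

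The levels of isolated cytosines were spread over the whole scale more than those of dense cytosines. By their mean over the animals, 2665 isolated cytosines were below 30% (low), 1115 lay from 30% to 70% (intermediate) and 1292 were above 70% (high). The median isolated cytosine had a mean level of 26.1%, against 5.15% for the median dense cytosine. Levels below 10% were found at 38.4% of isolated and 60.8% of dense cytosines. Levels above 90% were found at 13.3% and 11.6%. In each interval of 10 points above 10%, the share was larger among isolated than among dense cytosines. Levels above 90% were more frequent still in runs of 3 to 9, at 17.4%, so they were not particular to isolated cytosines.

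**Figure D2:**
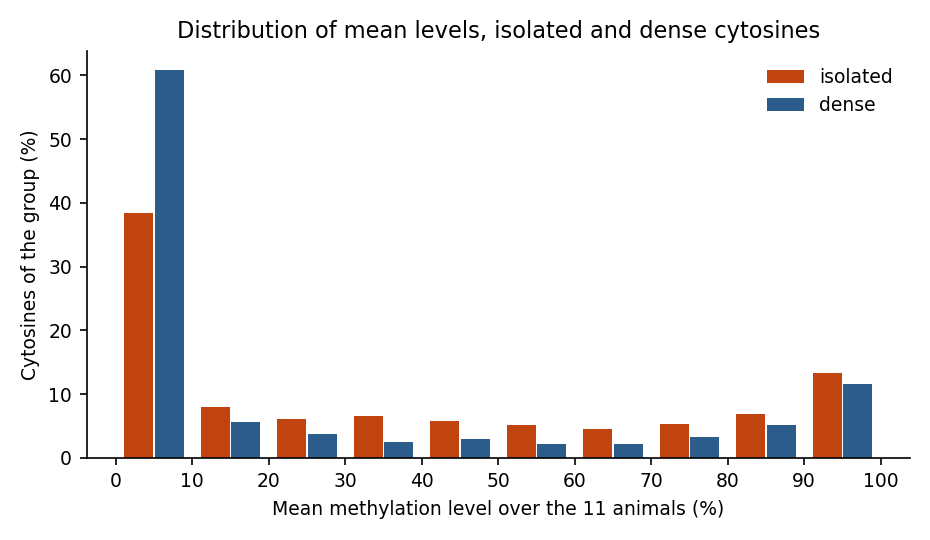
Share of isolated and of dense cytosines (percent of each set) by mean methylation level over the 11 animals, in intervals of 10 points. Levels below 10% hold 38.4% of isolated and 60.8% of dense cytosines, and the isolated bars are taller in all other intervals.

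The same was seen within each animal. Ratios below 0.3 made up 51.2% to 55.7% of an animal's isolated cytosines (median 53.3%) and 68.4% to 71.2% of its dense cytosines. The difference was -16.5 points ± 1.21 and negative in 11 of 11 animals. Intermediate ratios made up 19% to 22.8% of isolated cytosines (median 20.5%), against 8.94% to 11.4% of dense ones, a difference of 10.4 points ± 1.15. High ratios made up 25.1% to 26.8% (median 26.1%) against 19.1% to 20.5%, a difference of 6.15 points ± 0.301. The intermediate and high shares were larger at isolated cytosines in 11 of 11 animals, and the exact permutation test gave p = 0.000977 and adjusted p = 0.00124 for each of the 3 shares. In none of the 3 classes did the animals' values overlap between the sets. By their mean over the animals, 28.6% of cytosines in runs of 3 to 9 were high, against 25.5% of isolated ones. The larger high share was thus not particular to isolated cytosines. Against dense runs of 20 or more the low difference was -9.94 points and the intermediate difference 3.63 points, the latter positive in 9 of 11 animals. The high difference was 2.47 points against dense runs of 5 or more, 4.02 points with class bounds of 0.2 and 0.8 and 4.01 points without ratios of exactly 0 or 1. It was 9.84 points without the first and last 5 Mb of each chromosome. Within those 5 Mb the direction was the other way, with 28.4% of isolated and 36.7% of dense cytosines high by their mean. With both strands of a CpG counted once, the low and high differences were -26.0 and 13.2 points.

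Ratios of exactly 0 were fewer at isolated cytosines, where means below 10% were also fewer (38.4% against 60.8%). Without matching for level, ratios of exactly 0 made up 11.4% to 23.8% of an animal's isolated cytosines (median 18.9%). They made up 17% to 38.7% of an animal's dense cytosines (median 31.2%). The difference was -10.5 points ± 4.01 and negative in 11 of 11 animals (exact permutation test, p = 0.000977, adjusted p = 0.00124). Animals 2606, 2646, 5296 and 5272 had the lowest shares in both sets, and without them the difference was -13.3 points. Against dense runs of 20 or more it was -2.71 points and negative in 10 of 11 animals. Ratios of exactly 1 made up 3.92% to 6.92% of isolated cytosines (median 5.13%) and 3.58% to 6.38% of dense ones. That difference was 0.660 points ± 0.472 and positive in 11 of 11 animals (exact permutation test, p = 0.000977, adjusted p = 0.00124). It was reversed when isolated runs were limited to 1 cytosine (-0.334 points) and when dense runs began at 5 cytosines (-0.794 points), so its direction depended on how the runs were bounded. It was 0.258 points and not past the threshold of 0.05 when every run counted once, and 0.345 points in 7 of 11 animals with chromosomes 10 and 11. It was 1.92 points against dense runs of 20 or more, 1.77 points without the first and last 5 Mb of each chromosome and 2.40 points with strands counted once.

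Spread between animals was measured for each animal as its average distance, in points, from the other 10 animals' mean. The class of a cytosine was set by the other animals. At low isolated cytosines the lowest, median and highest animal had a spread of 4.36, 4.75 and 5.24 points, and the mean was 4.79 ± 0.228. At intermediate isolated cytosines these values were 10.3, 12.1 and 14.4 points, with a mean of 11.9 ± 1.28 and the highest value in animal 5272. At high isolated cytosines they were 5.50, 6.35 and 6.74 points, with a mean of 6.17 ± 0.441. Intermediate isolated cytosines thus varied most between animals, and the ranges of the 3 classes over the animals did not overlap.

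The spread at isolated cytosines exceeded that at dense cytosines by small amounts. The differences were 0.754 points ± 0.359 in the low class, 1.01 points ± 0.972 in the intermediate class and 0.850 points ± 0.257 in the high class. They were positive in 10, 10 and 11 of 11 animals. The exact permutation test gave p = 0.00195, 0.00488 and 0.000977, with adjusted p = 0.00228, 0.00488 and 0.00124. Each animal also enters the means used for the other 10, so the 11 differences are not independent, although the test treats them so. The low class held its direction only in part. With dense cytosines weighted to the levels of isolated ones within the class, the difference was -0.229 points, and against dense runs of 20 or more it was -0.708 points. It was 0.405 points with class bounds of 0.2 and 0.8 and 0.447 points without the first and last 5 Mb of each chromosome. The intermediate difference was not past the threshold of 0.05 with class bounds of 0.2 and 0.8 (0.655 points), when every run counted once (0.229 points), without the first and last 5 Mb of each chromosome (0.487 points) or without the 4 animals above (0.691 points). Against dense runs of 20 or more it was 1.95 points in 8 of 11 animals. The high difference was 0.169 points when every run counted once and was then not past the threshold. It was 0.425 points with levels weighted, 0.314 points when runs of 50 or more were also left out, and 0.370 points without the first and last 5 Mb. Against dense runs of 20 or more it was 1.37 points.

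**Figure D3:**
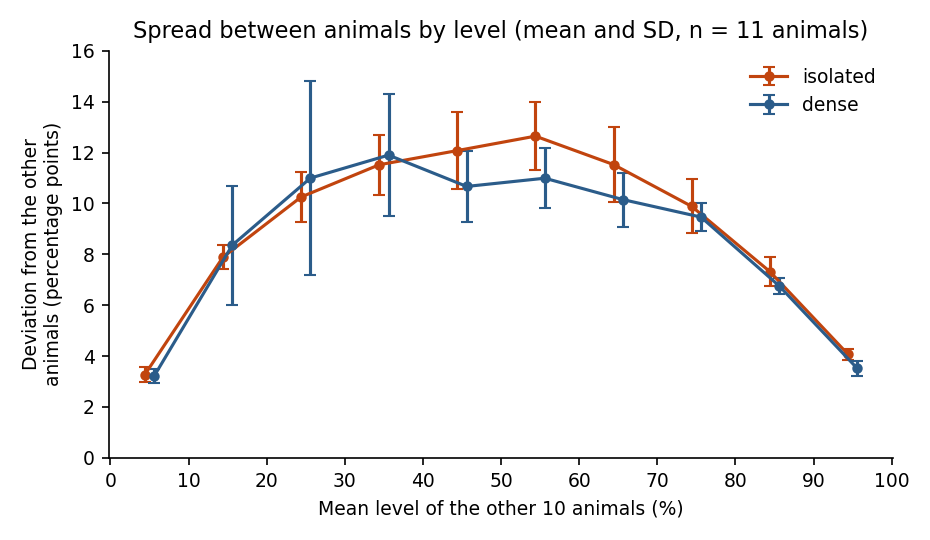
Mean absolute deviation of an animal from the mean of the other 10 animals (percentage points) by the level of those other animals in intervals of 10 points, for isolated and dense cytosines. Points are means and bars SDs over 11 animals. Isolated cytosines reach 12.6 points between 50% and 60%, where dense ones reach 11.0 points, and the sets lie within each other's bars below 40%.

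By intervals of 10 points of the level, the isolated spread rose from 3.27 points below 10% to 12.6 points between 50% and 60% and was 4.07 points above 90%. The dense spread was 3.21, 11.0 and 3.51 points in the same intervals. From 10% to 40% the isolated spread was the smaller one, with 7.88, 10.3 and 11.5 points against 8.36, 11.0 and 11.9 points in successive intervals. The dense spread was highest between 30% and 40%, and the isolated spread between 50% and 60%. Between 20% and 30% the dense spread varied widely from animal to animal, from 6.50 to 18.9 points, against 9.08 to 12.2 points at isolated cytosines. One dense run of 225 cytosines on chromosome 20 had a mean level of 23.2% and a mean SD over animals of 17.7 points. The mean SD over all isolated cytosines was 7.82 points, but these span all levels and are not matched to that run.

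Counted by cytosine, the range over the 11 animals was over 50 points at 473 isolated cytosines (9.33%) and at 633 dense cytosines (5.60%). Of the 473, 362 had an intermediate mean, 60 a low one and 51 a high one. The 633 were not split by class. Intermediate means were more frequent among isolated cytosines (1115 of 5072) than among dense ones (1103 of 11301). The shares with a wide range are thus not matched for level and do not tie wide ranges to isolation itself. In the 4 runs of 50 or more, which are dense, 44.7% of the 459 cytosines had a range over 50 points. At 59 isolated cytosines (1.16%) at least 1 animal was below 20% and another above 80%, against 89 dense cytosines (0.788%), also without matching for level. All 11 animals fell in the same class at 3031 isolated cytosines (59.8%) and at 8922 dense cytosines (78.9%). For cytosines with a low mean this share was 79.1% at isolated and 89.8% at dense ones. It was 64.9% and 71.7% for a high mean, and 7.53% and 15.9% for an intermediate mean. A single animal lay more than 30 points outside the range of all others at 45 isolated cytosines (0.887%), above it at 26 and below it at 19. No animal accounted for more than 7 of these 45, whereas at dense cytosines animal 2595 accounted for 149 of 199. In runs of 3 to 9 it accounted for 34 of 210. The 149 were not split by run, and cytosines of 1 run are not separate events. Animal 2595 had the highest level in the 4 runs of 50 or more, at 63.4%.

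The levels of isolated cytosines were correlated in every pair of animals. Over the 5072 cytosines, the Pearson correlation of a pair of animals had a median of 0.935 over 55 pairs, and ranged from 0.898 to 0.946. Over dense cytosines the median was 0.960 and the range 0.923 to 0.970. A pair of animals was within 20 points at a median of 88.4% of isolated and 93.9% of dense cytosines. These correlations run across cytosines of the same libraries and describe likeness only.

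Runs of 2 show how alike close isolated cytosines are. Both members lay on the plus strand in 818 runs, both on the minus strand in 880 and on opposite strands in 22, of which 4 were the strands of a single CpG. The median distance between members was 12 bp, with quartiles of 7.0 and 22 bp. Adjacent cytosines of dense runs shared a strand in 64.2% of pairs, against 98.7% in runs of 2. The median difference between the members' mean levels was 3.90 points, and 1247 of the 1720 runs (72.5%) differed by under 10 points. Both members were in the same class in 1410 runs (82.0%), against 90.2% of adjacent pairs in dense runs. Of the 1410, 813 were both low, 349 both high and 248 both intermediate. In 55 runs (3.20%) a low member lay beside a high one, against 1.25% of adjacent pairs in dense runs. The dense pairs lay closer together, at a median of 5 bp with quartiles of 2 and 11 bp, so these shares are not matched for distance.

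The mean absolute difference between members within an animal was taken by distance. At 2 to 20 bp, with 1229 runs, it was 11.0 to 11.7 points (median 11.3), against 6.50 to 7.69 points for adjacent dense cytosines. At 21 to 100 bp, with 465 runs, it was 14.2 to 15.3 points (median 14.6), against 9.29 to 10.9 points. At over 100 bp, with 22 runs, it was 21.6 to 28.8 points (median 26.4), against 12.9 to 14.6 points. Without weighting by level, isolated neighbours differed more than dense ones at each of these distances, by 4.29 points ± 0.203, 4.43 points ± 0.509 and 12.1 points ± 2.30. All 3 differences were positive in 11 of 11 animals (exact permutation test, p = 0.000977, adjusted p = 0.00124 for each). The difference at over 100 bp rested largely on pairs on opposite strands. With same-strand pairs only, the isolated value was 15.9 points against 13 points in dense runs, a difference of 2.91 points that was positive in 9 of 11 animals. With pairs on either strand, the difference at over 100 bp was 5.45 points with a gap of over 500 bp. It was 6.79 points with chromosomes weighted equally. Without ratios of exactly 0 or 1 the differences at 2 to 20 bp and 21 to 100 bp were 2.42 and 2.03 points. Only 4 isolated runs had members 1 bp apart, and there the isolated difference was smaller, by -4.39 points ± 3.25 in 10 of 11 animals (exact permutation test, p = 0.00391, adjusted p = 0.00421). This call was lost without ratios of exactly 0 or 1 (-1.94 points) and without the first and last 5 Mb (-2.88 points). The direction turned over every sequence (1.14 points). The p at 1 bp covers the animals and not variation among runs, of which there were only 4.

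These neighbour differences depended on how dense pairs were weighted. With dense pairs weighted to the levels of isolated pairs, the differences were 0.0392 points at 2 to 20 bp, -1.32 points at 21 to 100 bp and 0.0641 points at over 100 bp. The exact permutation test gave p = 0.698, 0.000977 and 0.929, and the value at 21 to 100 bp was negative in 11 of 11 animals. For pairs on the same strand, weighted in the same way, the differences were 1.00, 0.133 and -4.08 points. The exact permutation test gave p = 0.000977, 0.522 and 0.000977 for these. The first and last had the same sign in 11 of 11 animals. The last rests on only part of the 22 isolated runs with members over 100 bp apart. Its p covers the animals and not variation among so few runs. The level of a pair was the mean of its members in the other animals. A pair whose members differ widely in those animals must lie at an intermediate level. Weighting by level thus acts in part on the difference itself. It cannot decide whether isolated neighbours are less alike than dense neighbours at equal level.

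The 3 runs with the largest difference between members were each nearly all or none in every animal. On chromosome 13, positions 23153919 and 23153933 of the plus strand, 14 bp apart, had means of 99.5% and 0.303%. The first ranged from 94.4% to 100% and the second from 0% to 3.33%. On the minus strand of chromosome 1, position 135585337 was at 0% in all 11 animals, and position 135585346, 9 bp away, had a mean of 99.1% and a lowest value of 93.9%. On chromosome 13, positions 108838147 and 108838156 of the plus strand had means of 95.8% and 0.144%. In these 3 runs no animal's values came near each other. Coordinates are those of the macaque genome the authors used, for which no sequence or annotation was used here.

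The 3 most variable isolated cytosines, by SD over the animals, were all members of runs of 2 whose partner was high. Position 5909554 of chromosome 14 (plus strand) had a lowest, median and highest level of 0%, 77.1% and 100% (SD 35.3 points). It was at 100% in animals 2595, 5296, 2666, 2654 and 5295, at 16.7% in animal 2606 and at 0% in animal 2624. Its partner, 471 bp away, had a mean of 95.8% and was never below 83.3%.

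Position 52479984 of chromosome 1 (minus strand) had a lowest, median and highest level of 0%, 35.7% and 100% (SD 35.2 points). Animal 2595 was highest and animals 2624 and 2673 were at 0%. Its partner, 14 bp away, had a mean of 90.5% and a lowest value of 34.0%, in animal 5295. Position 157446023 of chromosome 3 (minus strand) was at 0% in 8 of 11 animals, and at 53.3%, 58.3% and 91.7% in animals 5295, 2666 and 5296. Its partner, 33 bp away, was at 87.5% or more in every animal, so the variation was confined to 1 member in this run.

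Among isolated cytosines with a mean from 40% to 60%, the 3 with the smallest SD varied little between animals. Position 22359497 of chromosome 4 (plus strand) stood alone, 54021 bp from the nearest listed run, with a lowest, median and highest level of 35.3%, 40.6% and 46.4% (SD 4.34 points). Position 12712318 of chromosome 14 (plus strand) ranged from 36.8% to 51.9% with a median of 43.5% (SD 4.54 points). Its partner, 20 bp away, had a mean of 43.0% and ranged from 29.6%, in animal 5296, to 53.8%. The partner was thus in the low class in that animal. Position 73812355 of chromosome 18 (minus strand) ranged from 37.5% to 52.5% with a median of 43.8% (SD 5.60 points). No animal left the intermediate class at these 3 cytosines.

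**Figure D4:**
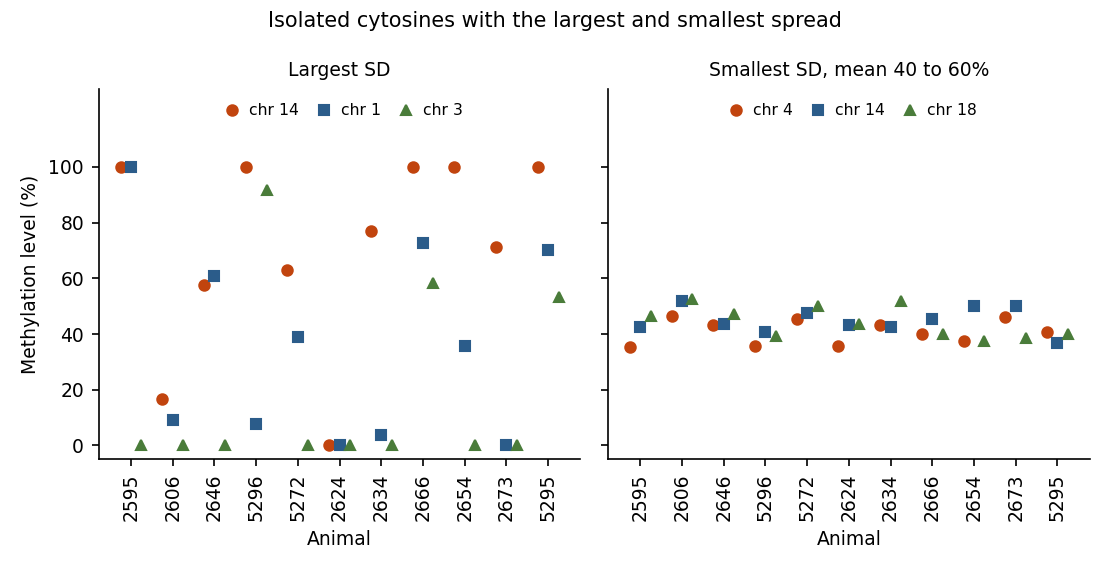
Methylation level (percent) in each of the 11 animals at the 3 isolated cytosines with the largest SD (left) and the 3 with the smallest SD among means of 40% to 60% (right), 1 symbol per cytosine. The left cytosines range from 0% to 100%, or to 91.7% on chromosome 3, and the right ones stay between 35.3% and 52.5%.

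Of the 245 runs of 2 with a range over 50 points at 1 member or more, 174 had it at 1 member and 71 at both. In those 71 runs the correlation of the members across the 11 animals had a median of 0.931 and ranged from -0.718 to 0.996. It was above 0.5 in 60 of the 71. In the 174 runs the other member had a range of 0 to 49.9 points, with a median of 32.3, and a range over 30 points in 93 runs. The count of 174 thus includes many runs in which both members varied.

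Isolated cytosines were above dense ones on 16 of 18 chromosomes, and on 15 of these in all 11 animals. Their mean ranged from 27.7% on chromosome 5 to 47.7% on chromosome 12, and made a narrower range than that of dense cytosines, from 13.1% on chromosome 6 to 47.6% on chromosome 8. The difference was 22.8 points ± 0.819 on chromosome 17, 21.7 points ± 5.44 on chromosome 20 and 21 points ± 0.917 on chromosome 12, the 3 largest. Without the run of 225 cytosines it was 23.0 points ± 1.38 on chromosome 20, above that of chromosome 17. It was near 0 on chromosome 15, with 1.43 points ± 0.950 and 10 of 11 animals higher. On chromosomes 5 and 8 it was -3.52 points ± 1.14 and -11.9 points ± 1.31, and isolated cytosines were lower in all 11 animals. Of the 4 runs of 50 or more cytosines, 1 of 67 cytosines lies on chromosome 5, with a mean of 64.1%, and those of 107 and 60 cytosines on chromosome 8 had means of 48.2% and 94.5%. Without its long run, a setting chosen after seeing the data, dense cytosines of chromosome 5 had a mean of 24.0% ± 1.02, and isolated ones were higher by 3.73 points ± 1.03 in 11 of 11 animals. The lower level of isolated cytosines on chromosome 5 thus rested on that 1 run. On chromosome 8 dense cytosines without the long runs had a mean of 42.9% ± 0.737, and the difference was -7.21 points ± 1.56, negative in all 11 animals. Isolated cytosines made up 9.06% to 14.2% of the cytosines of a chromosome.

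**Figure D5:**
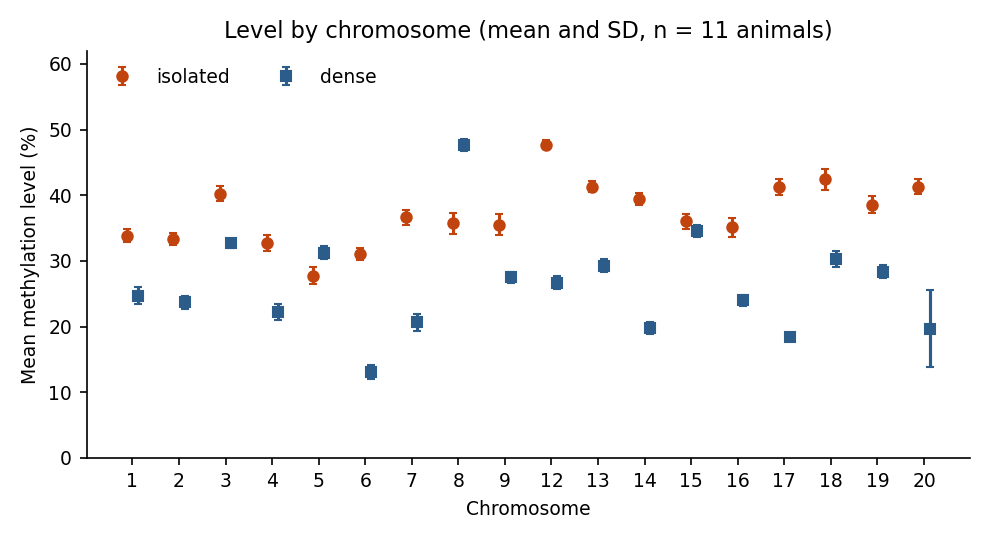
Mean methylation level (percent) of isolated and dense cytosines on each of the 18 chromosomes, as means with SD over 11 animals. Isolated cytosines lie above dense ones except on chromosomes 5 and 8, where runs of 50 or more are included, and the dense values range more widely, from 13.1% to 47.6%.

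The difference in level was smaller near chromosome ends than elsewhere. Within 5 Mb of the first or last listed position of a chromosome lay 1667 isolated cytosines (32.9%) and 2822 dense ones (25%). There, isolated cytosines had a mean of 43.6% ± 1.02 and dense ones of 42.2% ± 0.721, and the difference of 1.41 points ± 0.795 ran from 0.0430 to 2.30 points in the 11 animals. Elsewhere the means were 34.1% ± 1.03 and 21.4% ± 1.10, with a difference of 12.8 points ± 0.563. Near the ends, isolated cytosines were more often intermediate than dense ones (30.4% against 13.1%) and less often high (28.4% against 36.7%). Elsewhere they were more often both (17.9% against 8.64%, and 24.0% against 14.5%). The difference between these contrasts was described and not tested.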

How the data were processed

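RRBS ratios of 11 muscle biopsies were used as the authors deposited them. According to the methods, reads were trimmed, aligned with RRBSMAP to the genome of Yan et al., kept at a coverage of at least 10 and turned into a methylation ratio per CpG. Sources differ on the libraries: the methods give MspI alone and conversion with the EpiTect Bisulfite Kit, but the labels give TaqαI besides MspI and a Methylation-Gold Kit. Column headings did not match sample labels, so columns were used as 11 animals of 1 group.

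Levels, shares, spread and neighbour differences were computed per animal with Python 3.11.15, numpy 2.4.6 and pandas 2.3.3, and plotted with matplotlib 3.10.9. The 14 comparisons were tested by a two-sided permutation test of paired differences over all 2048 sign changes, with Benjamini-Hochberg adjustment over the 14 and a threshold of 0.05. The units were animals, so no p covers variation among cytosines or runs. Calculations were tested on simulated data. Members and lists were chosen with earlier results of these data known. Named isolated cytosines were the 3 with the largest SD, the 3 with the smallest SD among means of 0.4 to 0.6, the 3 most remote runs, and the 3 runs of 2 with the largest difference. Ties went to the lower chromosome and position.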

Additional observations from a re-analysis of the deposited data

How the results depend on the processing

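The 14 comparisons were repeated with other gaps, run sizes, class bounds, weights and chromosome sets, and without each animal in turn. Of 314 such values, 303 kept their direction and their side of the threshold. Of 47 from 6 settings chosen after seeing the data, 36 did. Those settings were dense runs below 50, standardised levels, both together, same-strand pairs, these with standardised levels, and leaving out 4 animals. Level, the low, intermediate and high shares, the share of exact 0 and the contrast of runs of 1 with runs of 2 did so throughout, though not with the same size, as did all comparisons when each animal was left out. The level difference ranged from 7.22 to 18.2 points.

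The low spread was -0.708 points against dense runs of 20 or more, -0.229 with standardised levels and -0.0465 when runs of 50 or more were also left out. The intermediate spread was 0.655 points with bounds of 0.2 and 0.8, 0.229 with every run counted once, 0.487 without chromosome ends and 0.691 without the 4 animals with higher low levels. The high spread was 0.169 with every run counted once. The 1 bp neighbour difference was -1.94 without ratios of 0 or 1, 1.14 over every sequence and -2.88 without chromosome ends.

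With standardised levels, neighbour differences were 0.0392 (2 to 20 bp), -1.32 (21 to 100 bp) and 0.0641 points (over 100 bp). Leaving out runs of 50 or more as well gave -0.235, -1.66 and 0.0566. Same-strand pairs with standardised levels gave 0.133 at 21 to 100 bp and -4.08 at over 100 bp. The share of exact 1 was -0.334 for runs of 1, -0.794 against dense runs of 5 or more and 0.258 with every run counted once. The causes were not tested. Depth per cytosine is unknown, so its part in the spread was not tested.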

Other observations

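A ratio of 0 in every animal was listed at 66 isolated cytosines (1.30%), against 27 dense cytosines (0.239%), although single zeros were fewer at isolated cytosines. Of the 66, 20 stood alone and 46 were in runs of 2. The partner was low for 39 of these 46, intermediate for 2 and high for 5, and for 10 of the 46 it was also 0 in every animal. A ratio of 1 in every animal was listed at 19 isolated (0.375%) and 29 dense cytosines (0.257%). Of these 19, 12 were in runs of 2, where the partner was high in 10 and intermediate in 2.

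Isolated runs lay at a median of 23991 bp from the nearest listed cytosine outside the run, against 32814 bp for dense runs. Their level was 30.4% ± 1.36 within 1.5 kb of that cytosine. It was 38.3% ± 1.11 at 1 to 5 kb as a whole, 40.8% ± 1.20 at 5 to 20 kb, 35.1% ± 1.01 at 20 to 100 kb and 35.0% ± 0.941 at over 100 kb. The share of intermediate means was 25%, 27.1%, 21.1% and 14.7% in the last 4 of these, and the mean SD over animals was 8.12, 8.82, 7.44 and 6.90 points. Within 1.5 kb the share was 18.4% and the mean SD 7.51 points. The level was highest at 5 to 20 kb, and the share and the mean SD were lowest at over 100 kb. These differences by distance were described and not tested.

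The level of an isolated run said little about that of the nearest run. At 1 to 5 kb, 666 isolated runs differed from the nearest run by a median of 24.1 points, and the correlation of the run means across runs was 0.260. It was 0.120 at 5 to 20 kb, 0.00367 at 20 to 100 kb and 0.111 at over 100 kb. The nearest run was itself isolated in 35.6%, 41.5%, 38.7% and 30.7% of cases.

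The 3 isolated runs farthest from any other listed cytosine covered different levels. Position 83181321 of chromosome 9 (minus strand), 2866976 bp from its nearest listed neighbour, had a lowest, median and highest level of 8.70%, 22.2% and 41.2%. Positions 80595474 and 80595495 of chromosome 14 (minus strand), 2682580 bp from the next, had means of 55.6% and 57.8% with ranges of 23.4% to 77.8% and 25.5% to 78.9%. In that pair the same animals were low, with 2634, 5272 and 2624 the lowest at both positions. Positions 48872877 and 48872889 of chromosome 6 (plus strand), 2604706 bp from the next, had means of 2.76% and 2.62% and did not exceed 9.38% in any animal.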
